A study of Mus musculus with 8 samples.

Results

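ATP-dependent chromatin remodellers are protein machines that slide, evict or exchange nucleosomes, and they set which stretches of DNA transcription factors can reach. The genes described here encode 52 subunits of them, and they were taken by gene symbol from an annotated list of places where the zinc finger transcription factor KLF13 was captured on chromatin. Of the 9506 peaks in that list, 59 were assigned to 41 of the 52 genes, and 11 of the genes had no assigned peak. By the complex they serve, 22 belong to SWI/SNF, 9 to the ISWI family, 9 are CHD genes, 9 belong to the INO80, SRCAP and EP400 group, and 3 encode further ATPases.

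The cells were HT22, a neuronal line derived from mouse hippocampus, of the genotype HT22-BirA: they stably carry the biotin ligase BirA. All of them were transfected with the pTO-Klf13Bio plasmid, so that they made KLF13 that BirA biotinylates, and chromatin was taken 24 h later. The tagged protein was pulled down on streptavidin (chromatin streptavidin precipitation, ChSP) for 4 libraries, and 4 input libraries had no pulldown and came from cells with the same plasmid. Capture on streptavidin without tagged KLF13 was not analysed here and cannot be told apart from KLF13 binding. Every value below is the authors' single value per peak over all libraries: the fold is a linear ratio of ChSP over input. It carries no replicate error, the read depth is unknown, and no test between genes was made. Peaks do not measure RNA, so the neuronal identity of the line could not be checked against its markers.

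SWI/SNF complexes carry 1 of a pair of alternative ATPases, a shared core, and exchangeable subunits that direct the complex to its targets. Neural progenitors and neurons are known to use different versions of several of these subunits. ISWI remodellers space nucleosomes, CHD proteins combine a chromodomain with the ATPase, and the INO80, SRCAP and EP400 complexes exchange histone variants. KLF and Sp factors bind GC-rich elements such as the GC box and the CACCC box.

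Promoter sequences of these genes are shown first, because the GC box recurs in them. They come from RefSeq promoter windows of GRCm38.p6, which run from 250 bases before to 50 bases after a start site. The bases before the start site are shown, 5′ to 3′ on the gene's strand, without those inside the RefSeq bounds of a protein-coding gene. Capitals mark matches, on both strands, to the GC box GGGCGG, the CACCC core GGGTG, and CCACGCCC. Bptf, Smarcc2, Chd6 and Srcap had the highest promoter fold with a printable window in their complexes, and Brd7 has a paralogue without a peak.
Bptf promoter, chr11:107132148-107132397, minus strand: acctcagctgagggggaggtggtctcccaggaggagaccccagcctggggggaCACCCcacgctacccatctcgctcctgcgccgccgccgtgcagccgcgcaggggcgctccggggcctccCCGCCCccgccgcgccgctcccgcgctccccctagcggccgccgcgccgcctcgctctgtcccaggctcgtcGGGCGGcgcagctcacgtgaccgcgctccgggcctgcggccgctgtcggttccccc
Smarcc2 promoter, chr10:128458986-128459181, plus strand: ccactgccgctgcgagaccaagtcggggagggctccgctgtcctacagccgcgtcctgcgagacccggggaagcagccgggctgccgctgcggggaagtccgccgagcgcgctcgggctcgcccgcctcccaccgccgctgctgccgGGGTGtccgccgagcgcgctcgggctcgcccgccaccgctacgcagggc
Chd6 promoter, chr2:161109087-161109336, minus strand: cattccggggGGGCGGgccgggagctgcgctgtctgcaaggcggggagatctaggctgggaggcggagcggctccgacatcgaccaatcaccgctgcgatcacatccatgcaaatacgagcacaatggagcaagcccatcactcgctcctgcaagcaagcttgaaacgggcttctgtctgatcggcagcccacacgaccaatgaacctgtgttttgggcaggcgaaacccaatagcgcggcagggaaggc
Srcap promoter, chr7:127511733-127511982, plus strand: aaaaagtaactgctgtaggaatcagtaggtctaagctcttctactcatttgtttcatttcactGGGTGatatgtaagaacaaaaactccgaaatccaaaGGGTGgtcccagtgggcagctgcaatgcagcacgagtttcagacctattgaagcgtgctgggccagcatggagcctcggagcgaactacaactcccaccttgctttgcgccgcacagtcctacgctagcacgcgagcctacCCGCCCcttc
Brd7 promoter, chr8:88362253-88362422, minus strand: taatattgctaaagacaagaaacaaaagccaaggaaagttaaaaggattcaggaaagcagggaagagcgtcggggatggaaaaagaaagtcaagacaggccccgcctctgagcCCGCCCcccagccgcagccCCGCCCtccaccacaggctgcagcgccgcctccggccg

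Another 4 windows were picked after their values were seen. Phf10 had the highest GC and CpG content of the members, Smarcc1 is the paralogue of Smarcc2 and holds CCACGCCC, Atrx had a promoter peak and no GC box, and Ruvbl1 had no peak.
Phf10 promoter, chr17:14961261-14961510, minus strand: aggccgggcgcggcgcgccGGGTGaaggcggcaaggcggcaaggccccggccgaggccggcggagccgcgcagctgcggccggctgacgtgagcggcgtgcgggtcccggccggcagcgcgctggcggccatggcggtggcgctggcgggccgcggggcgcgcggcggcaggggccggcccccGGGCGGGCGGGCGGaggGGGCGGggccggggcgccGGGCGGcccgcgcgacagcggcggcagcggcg
Smarcc1 promoter, chr9:110131774-110132023, plus strand: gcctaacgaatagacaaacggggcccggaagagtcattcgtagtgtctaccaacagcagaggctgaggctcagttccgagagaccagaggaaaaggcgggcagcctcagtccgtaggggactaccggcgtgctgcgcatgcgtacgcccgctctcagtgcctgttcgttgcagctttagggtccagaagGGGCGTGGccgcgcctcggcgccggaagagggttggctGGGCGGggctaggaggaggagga
Atrx promoter, chrX:105929373-105929622, minus strand: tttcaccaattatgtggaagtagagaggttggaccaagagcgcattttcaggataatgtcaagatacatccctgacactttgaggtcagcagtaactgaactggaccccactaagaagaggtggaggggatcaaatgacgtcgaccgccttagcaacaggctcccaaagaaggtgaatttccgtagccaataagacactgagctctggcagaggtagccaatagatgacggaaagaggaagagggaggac
Ruvbl1 promoter, chr6:88465159-88465408, plus strand: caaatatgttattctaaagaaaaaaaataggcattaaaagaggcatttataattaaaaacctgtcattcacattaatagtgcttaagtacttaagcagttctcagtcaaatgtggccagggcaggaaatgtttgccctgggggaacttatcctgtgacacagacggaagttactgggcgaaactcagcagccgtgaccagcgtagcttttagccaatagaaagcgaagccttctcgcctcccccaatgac

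The stretches shown for Bptf, Smarcc2, Chd6 and Brd7 lay wholly under the gene's own KLF13 peak, and 223 of the 250 bases of Smarcc1 did. Those of Srcap, Phf10 and Atrx lay just outside their peaks. The Bptf stretch holds 2 GC boxes, that of Brd7 holds 2, those of Chd6, Srcap and Smarcc1 hold 1 each, and that of Phf10 holds 5. Smarcc2, Atrx and Ruvbl1 have none in the bases shown.

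Peaks assigned to a gene and no more than 1 kb from a start site of its transcripts (TSS) are called promoter peaks here. They were found at 39 of the 52 remodeller genes (75%), where 30.9% of all 21900 protein-coding genes had one. With any assigned peak counted, it was 41 of 52 against 33.6% of all genes. Remodeller genes are long: their median length was 58.8 kb against 17.1 kb for all genes, and the share with a promoter peak rose with gene length over the whole list. With the genes split by length into 5 classes of near-equal size, 54.5% of the longest class had a promoter peak, and 21 of the 27 remodeller genes in that class did. In the next class, from 24.6 to 57.1 kb, the share was 39.4% of all genes and 11 of 12 remodeller genes. How much of the difference gene length accounts for was not tested. Among genes with a promoter peak, the median of the highest promoter fold was 28.4 over the 39 remodeller genes and 22.9 over all 6769 genes. The values of the 39 ran from 6.01 to 73.3, and 25 of them lay above the median of all genes.

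**Figure D1:**
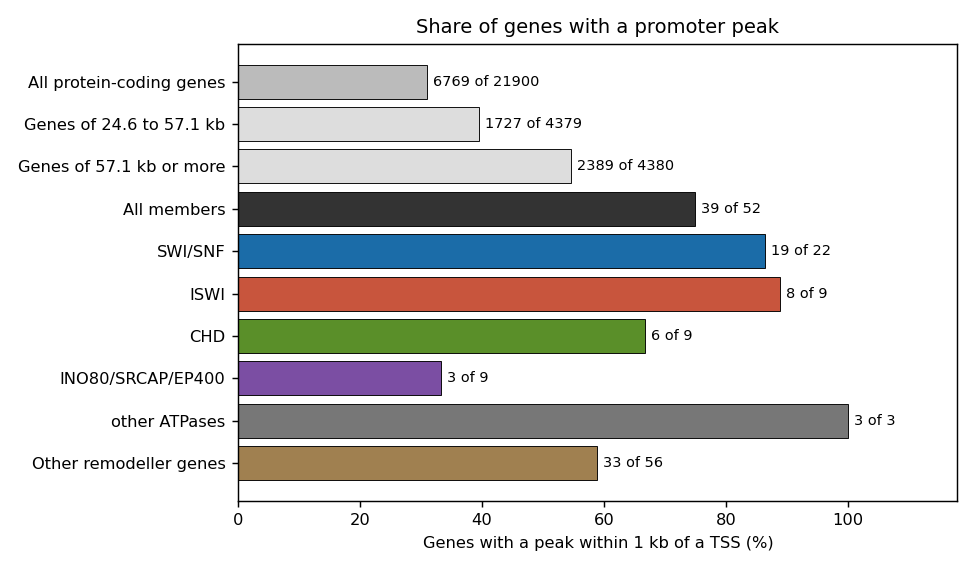
Percent of genes with a peak within 1 kb of a TSS, for all protein-coding genes, the 2 longest of 5 classes of them by gene length, the 52 remodeller genes and each complex, and 56 further remodeller genes, with the counts beside each bar. The bar of the INO80, SRCAP and EP400 group, 3 of 9, is near that of all genes, and the SWI/SNF and ISWI bars are the highest of the 4 large groups.

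The ATPase subunits, the motors of these complexes, had promoter peaks at 15 of 19 genes (78.9%). That is near the 75% of all members, and 30.9% of all genes had one. The median length of the ATPase genes was 83.2 kb, and 54.5% of all genes in the longest class had a promoter peak. SWI/SNF has a pair of them, and both were marked: Smarca4, which encodes BRG1, had a fold of 33.3 in a single peak over its TSS (chr9:21615901-21616700, the authors' p = 3.31e-20). Smarca2, which encodes the alternative motor BRM, had 13.3 at its TSS (chr19:26604801-26605300, the authors' p = 5.78e-12), one of the 4 lowest among the members. Smarca2 also had a stronger peak of 19.0 at 1441 bp downstream and another of 13.9 in an exon 35.2 kb into the gene. The Smarca4 value stood above all 3 Smarca2 values.

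SWI/SNF genes had promoter peaks at 19 of 22 members (86.4%, against 30.9% of all genes). Their median length was 31.6 kb, and 39.4% of all genes from 24.6 to 57.1 kb had a promoter peak. Each gene of the shared core named here had one. The scaffold gene Smarcc2 had the highest promoter fold of the complex, 45.6 (chr10:128458801-128460000, the authors' p = 3.59e-20), and its paralogue Smarcc1 had 22.7 (chr9:110131801-110132700). Smarcb1, a core subunit that contacts the nucleosome, had 18.02, and Smarce1 had 22.7. The values of Smarcc1, Smarcb1 and Smarce1 lay below the median of 22.9 over all genes with a promoter peak. The 3 Smarcd genes, which encode alternative versions of a subunit that bridges the complex to transcription factors, lay close together at their promoters, with 31.5 for Smarcd1, 29.8 for Smarcd3 and 27.5 for Smarcd2. Smarcd3 differed from the other two in having 3 peaks: besides the one over its TSS there was a peak of 34.3 at 2599 bp upstream and one of 38.5 in an exon 3002 bp downstream (chr5:24598401-24599000, the authors' p = 4.73e-14). Both of these were higher than the TSS peak. A further peak of 18.8 covered the upper, 5′ RefSeq end of Smarcd3 and was assigned to 1700022A21Rik.

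The ARID genes, which encode the large DNA-binding subunits that distinguish one form of the complex from another, carried the widest peaks of all members. Arid1a had a fold of 41.6 in a peak of 2600 bp (chr4:133752201-133754800, the authors' p = 7.26e-23). Arid1b had 34.2 in 3100 bp (chr17:4993901-4997000) and Arid2 33.6 in 2200 bp (chr15:96286401-96288600). The median promoter peak was 800 bp wide over the remodeller genes and 700 bp over all genes with one, and fewer than 1 in 100 peaks of the list were as wide as these 3. Width and fold moved together across the list up to about 1200 bp: the median fold was 11.8 for peaks of 200 bp and 31.2 for peaks of 1200 bp. The ARID folds were not the highest for all that width: Srcap, Baz2a and Chd3 had folds of 50.4, 43.4 and 43.0 in peaks of 1000, 700 and 1100 bp.

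Arid1a and Arid1b also shared a second feature, a strong peak far upstream. That of Arid1a lay 56432 bp before the TSS with a fold of 45.4 (chr4:133813201-133814500, the authors' p = 1.3e-21), and that of Arid1b lay 86474 bp before it with 42.3 (chr17:4907901-4908600, the authors' p = 1.1e-23). Each was above the TSS peak of its gene. The authors' annotation calls both distal intergenic. In RefSeq the first overlaps the protein-coding gene model Gm34296, and the second covers the start site of the long noncoding RNA gene Gm34507, so the assignment to the ARID genes rests on distance alone.

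Brd7, Brd9 and Pbrm1, which encode subunits of the PBAF or noncanonical forms of SWI/SNF, differed in their assigned peaks. Brd7, a bromodomain subunit of PBAF, had a fold of 41.5 (chr8:88361501-88362600, the authors' p = 2.9e-29). Its relative Brd9, of the noncanonical form, had no assigned peak, and the nearest peak to either end of the gene was 48.3 kb away. Pbrm1, the polybromo subunit of PBAF, had no assigned peak either. Its start site, however, lay under a peak with a fold of 37.0 that the authors assigned to the neighbouring gene Gnl3 (chr14:31018901-31019700), which encodes nucleostemin. A peak is given to only 1 gene, so a shared promoter counts for one of its genes.

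Subunits that neural cells exchange as they leave the cell cycle were compared as pairs. Actl6b, whose product is the actin-related subunit of neuronal SWI/SNF, had a fold of 28.4 (chr5:137553301-137553900, the authors' p = 6.14e-12), and Actl6a, its counterpart in progenitors, had 6.01 (chr3:32708301-32708600, the authors' p = 4.53e-06), the lowest of all members. Peaks as narrow as that of Actl6a, 300 bp, had a median fold of 13.1 and a 10th percentile of 7.57 over the list, so Actl6a was low also for its width. Among the genes for the double PHD finger subunits, the neuronal Dpf1 had 20.6 and Dpf3 24.8, the progenitor subunit gene Phf10 had 22.2, and Dpf2 had no assigned peak, with none within 125 kb of its ends. Dpf1 had 3 peaks, over the TSS and at 896 and 3796 bp downstream, with folds of 20.6, 19.6 and 16.3. Ss18 had 29.4 at its promoter and a second peak of 15.1 in an intron 22.0 kb downstream, and its neuronal counterpart Ss18l1 had no assigned peak. The RefSeq start of Ss18l1 lay under a peak with a fold of 27.1 (chr2:180041701-180043400, the authors' p = 5.8e-25) that was assigned to Psma7, a proteasome subunit gene. In these 3 subunit families the progenitor genes Actl6a, Phf10 and Ss18 and the neuronal genes Actl6b, Dpf1 and Dpf3 thus had assigned promoter peaks, and Ss18l1 had a peak over its start that counts for its neighbour.

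**Figure D2:**
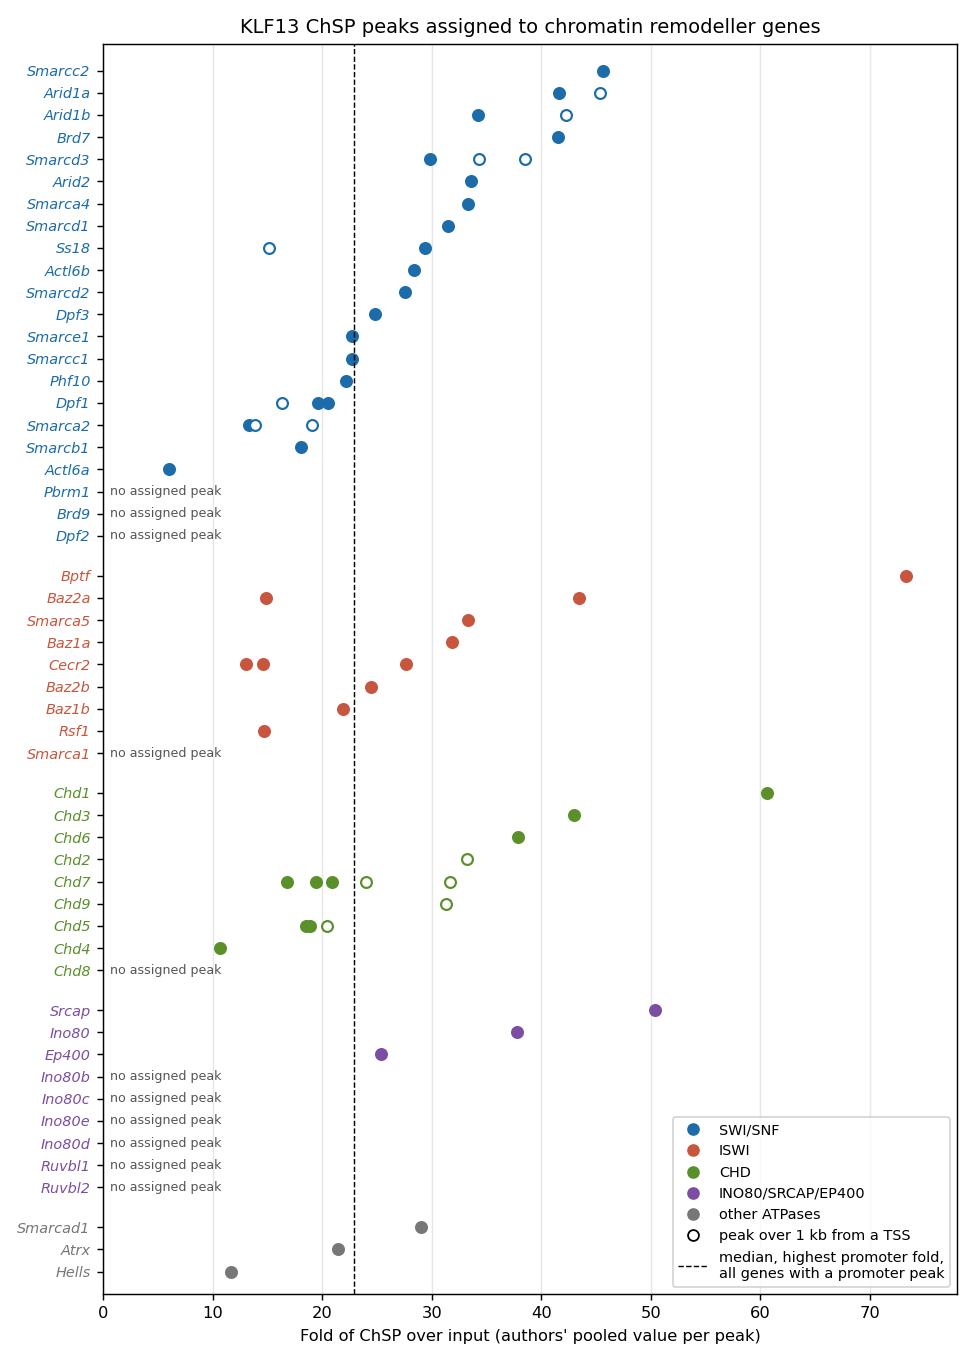
Fold of ChSP over input (authors' pooled value) of each of the 59 peaks, by gene and complex; filled points lie within 1 kb of a TSS and open points farther away, and the dashed line is the median of the highest promoter fold over all genes with a promoter peak, 22.9. Bptf at 73.3 and Chd1 at 60.6 stand to the right of all other points, and 6 genes of the INO80, SRCAP and EP400 group have no assigned peak.

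Genes of the ISWI family had promoter peaks at 8 of 9 members (88.9%, against 30.9% of all genes). Their median length was 99.1 kb, and 54.5% of all genes in the longest class had a promoter peak. Smarca5, the ATPase that most ISWI complexes use, had a fold of 33.3 (chr8:80738701-80739300, the authors' p = 3.67e-12). Its paralogue Smarca1 had none, and the nearest peak to either of its ends was 142 kb away. The highest promoter fold of all members, 73.3, was at Bptf, which encodes the large reader subunit of NURF (chr11:107131301-107132600, the authors' p = 9.42e-24), and it ranked 8th of the 6769 genes. Baz2a, a subunit of the nucleolar remodelling complex NoRC, had 43.4 (chr10:128092501-128093200, the authors' p = 5.53e-19) and a second peak of 14.9 near an internal start site. Baz2b, its paralogue, had 24.5 in a peak that lies inside the gene in RefSeq. A stronger peak of 48.9 (chr2:60209301-60210500, the authors' p = 4.42e-21) covered the upper, 5′ end of Baz2b and was assigned to the neighbouring gene March7.

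Among the other ISWI partners, Baz1a, a subunit of ACF, had 31.9, and Baz1b, which encodes the Williams syndrome transcription factor, had 21.9. Rsf1 had 14.7. Cecr2 had 3 narrow peaks between 200 and 400 bp wide, all within 480 bp of the TSS, with folds of 13.0, 27.7 and 14.6. The peak of 27.7 was only 200 bp wide (the authors' p = 1.03e-06), a width at which the 90th percentile of fold over the list was 18.3. The 3 peaks merge into 1 when peaks less than 1 kb apart are joined.

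CHD genes had promoter peaks at 6 of 9 members (66.7%, against 30.9% of all genes), and 2 more had a peak elsewhere. Their median length was 67.6 kb, and 54.5% of all genes in the longest class had a promoter peak. Of the CHD genes in that class, Chd1, Chd6 and Chd7 had a promoter peak and Chd2, Chd8 and Chd9 did not. Chd1, which acts at transcribed genes, had a fold of 60.6 (chr17:15704401-15705900, the authors' p = 7.12e-25), the 53rd highest of all genes with a promoter peak. Its closest relative Chd2 had no promoter peak. The single peak assigned to Chd2 lay 15855 bp upstream with a fold of 33.2 (chr7:73557601-73558800, the authors' p = 9.14e-17), and in RefSeq it covers the start site of Chaserr, a long noncoding RNA gene known for restraining Chd2 expression. The nearest peak to the ends of Chd2 itself was this one.

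The 3 CHD genes of the NuRD complex, which joins a remodeller to histone deacetylases, were marked unequally. Chd3 had 43.0 (chr11:69368401-69369500, the authors' p = 2.53e-21), the neuronal Chd5 had 18.9, and Chd4 had 10.7 (chr6:125096301-125096500, the authors' p = 9.1e-06). The Chd4 peak was 200 bp wide and began 138 bp downstream of the TSS. Chd5 had 2 further peaks, of 18.5 at 650 bp and of 20.4 in an exon 9.25 kb downstream.

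In the third CHD subfamily, Chd6 had a fold of 37.9 (chr2:161108201-161109700, the authors' p = 2.41e-25). Chd7, mutated in CHARGE syndrome, had 5 peaks, the most of any member. Its 3 promoter peaks, of 16.8, 19.4 and 20.9, lay close together, and 2 intergenic peaks of 31.7 and 23.9 lay at -42.7 kb and 54.5 kb from the nearest annotated start sites. The upstream peak (chr4:8647001-8647700, the authors' p = 3.23e-16) was the highest of the 5 and overlapped the noncoding gene Gm8273. Chd9 had a single intronic peak of 31.3, placed 22949 bp before its nearest annotated start (chr8:90907901-90909300, the authors' p = 4.49e-21). Chd8, mutated in a form of autism, had no assigned peak: a peak of Supt16 lay 851 bp from its 3′ end, and none lay near its start.

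**Figure D3:**
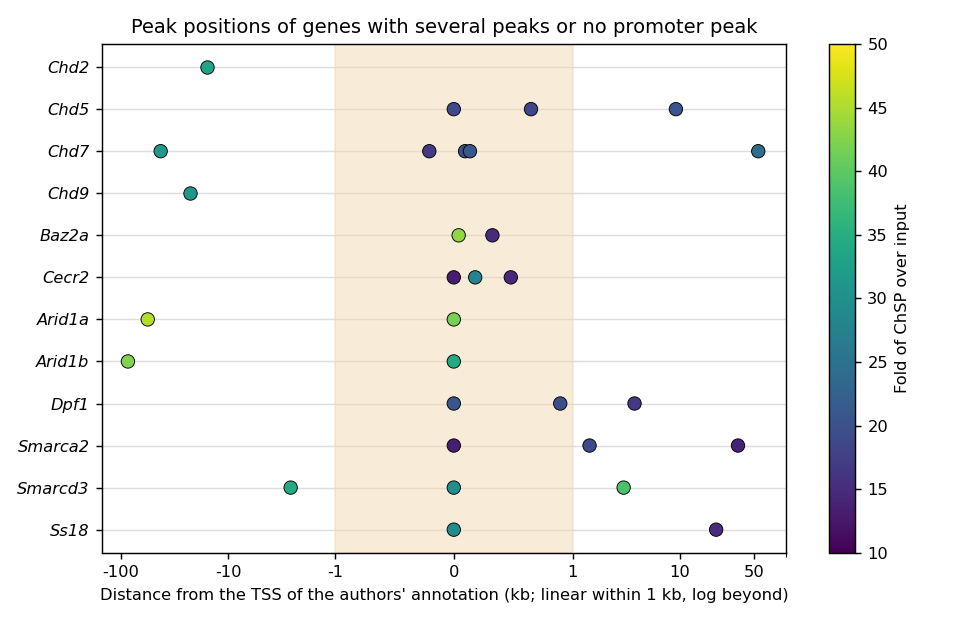
Distance in kb of each peak from the TSS of the authors' annotation (linear within 1 kb, logarithmic beyond) for the 10 members with several peaks and for Chd2 and Chd9, which have no promoter peak; colour gives the fold and the band marks 1 kb on either side. Arid1a and Arid1b each have a TSS peak and a higher one far upstream, and the colours of Chd7 show its distal peaks above its promoter peaks.

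Several peaks per gene were common among the members. Of the 52 genes, 10 had 2 or more assigned peaks against 5.4% of all genes, and 6 had 3 or more against 1.29%. With peaks less than 1 kb apart joined, 9 had 2 or more. Of the genes with 3 or more, Smarca2, Smarcd3 and Chd7 then kept 3. Dpf1 and Chd5 had 2 and Cecr2 had 1. The shares of all genes were not counted with peaks joined, and the part played by gene length was not tested. In all 46 of the 59 peaks lay within 1 kb of a TSS (77.97%, against 79.9% of all peaks), so the split between promoter and other peaks was that of the whole list. Of the other 13, 8 lay inside the RefSeq bounds of their gene and 5 outside them.

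In the INO80, SRCAP and EP400 group 3 of 9 genes (33.3%) had a promoter peak, near the 30.9% of all genes. Each of the 3 ATPase genes had a promoter peak: Srcap, which deposits the variant histone H2A.Z, had 50.4 (chr7:127512201-127513200, the authors' p = 2.74e-18), Ino80 had 37.8 (chr2:119477001-119478000, the authors' p = 1.47e-27), and Ep400 had 25.4 (chr5:110770001-110770900, the authors' p = 3.55e-23). None of the other 6 had an assigned peak, namely Ino80b, Ino80c, Ino80d, Ino80e, and Ruvbl1 and Ruvbl2, which encode the paired AAA+ ATPases shared by these complexes. This is a count drawn with the values known, and 12 of 22 further subunits of these complexes, described at the end, did have promoter peaks. The 2 sets also differ in gene length. Ino80, Ep400 and Srcap span 105.6, 106.6 and 49.2 kb, and the 6 genes without a peak have a median of 15.7 kb, from 3.36 kb for Ino80b to 66.5 kb for Ino80d. Of all genes, 27.5% had a promoter peak in the class from 11.6 to 24.6 kb and 54.5% in the longest class. The part played by gene length in this split was not tested. Ino80d is qualified by its neighbour: a peak of 46.0 (chr1:63113401-63114500) covers the upper end of the gene and is assigned to Ino80dos, a transcript named for the opposite strand. At Ino80b a peak of its neighbour Wbp1 lay 136 bp from the 3′ end, and the nearest peaks to the ends of the others were 2.34 kb away for Ruvbl1, 3.68 kb for Ino80e, 6 kb for Ruvbl2 and 83.5 kb for Ino80c.

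The 3 ATPase genes outside these families each had a promoter peak, where 30.9% of all genes had one. Smarcad1 (73.5 kb) and Atrx (131.8 kb) are in the longest class, where 54.5% of all genes had one. Hells (40.2 kb) is in the next, where 39.4% did. Smarcad1, which acts on heterochromatin during replication, had 29.03. Atrx, mutated in an X-linked intellectual disability syndrome, had 21.4 (chrX:105928501-105929100), and Hells, needed for DNA methylation, had 11.7 (chr19:38930801-38931300, the authors' p = 1.03e-09).

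When peaks were counted by position whichever gene they were assigned to, 39 of the 52 members had a peak within 1 kb of either gene end, against 31.8% of all genes. The total was the same and its members were not: 35 were shared, Arid1a, Baz1a, Baz2a and Ss18 dropped out, and Pbrm1, Ino80d, Ino80b and Chd8 came in.

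**Figure D4:**
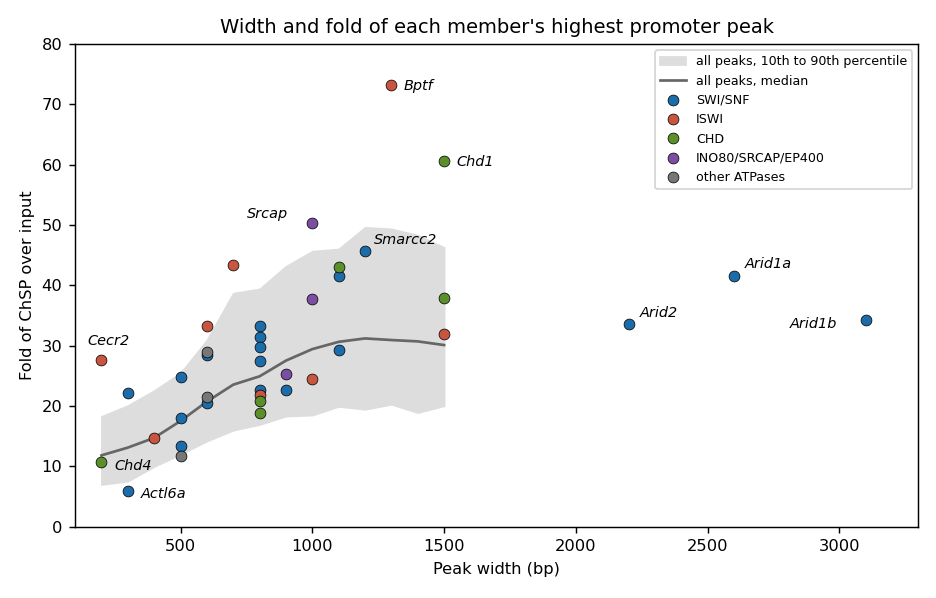
Width in bp and fold of ChSP over input of the highest promoter peak of each of 39 members, coloured by complex, over the 10th to 90th percentile band and the median of all peaks of the same width (drawn up to 1500 bp). Bptf, Chd1, Srcap, Baz2a, Smarca5, Cecr2 and Phf10 lie above the band, Arid1a, Arid1b and Arid2 lie far to its right with folds of 33.6 to 41.6, and Actl6a and Hells lie below it.

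Promoter windows were available for 40 of the 52 members. The GC box GGGCGG was present on either strand in 35 of the 40 windows (87.5%), where 47.1% of the windows of all 17492 protein-coding genes with one held it. Over all genes the box was in 78.3% of windows of genes with a promoter peak and in 33.3% of those without. Among the members, 27 of 30 with a promoter peak and 8 of 10 without one held it. Brd9, with no peak, had 4 boxes and Chd8 had 3, while Atrx, Baz2b and Smarcad1 had promoter peaks and no box in the window. The windows of Atrx and Baz2b lay beside their peaks, and that of Smarcad1 overlapped its peak only in part. Arid1a had the most, 7.

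Base composition was compared between windows of genes with and without a promoter peak. The median GC content was 66.8% for members with a promoter peak and 58.7% for those without, and the median number of CpG dinucleotides was 31.5 and 19.5. Over all genes these medians were 67.0% and 52.3%, and 27 and 7. The CACCC core GGGTG was in 22 of the 40 members' windows and in 58.5% of all windows. It was in 16 of 30 members' windows with a promoter peak (53.3%) and in 6 of 10 without one (60%). Over all genes these shares were 67.1% and 54.7%. CCACGCCC was in 5 of the 40 members' windows (12.5%), those of Chd4, Dpf1, Ep400, Ino80 and Smarcc1, and in 7.21% of all windows. CCACGCCC contains neither of the other words on either strand. How much of these shares base composition accounts for was not tested. The peak overlapped the window in 21 of the 30 members with both, so for the other 9 the bases counted lay beside the peak.

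**Figure D5:**
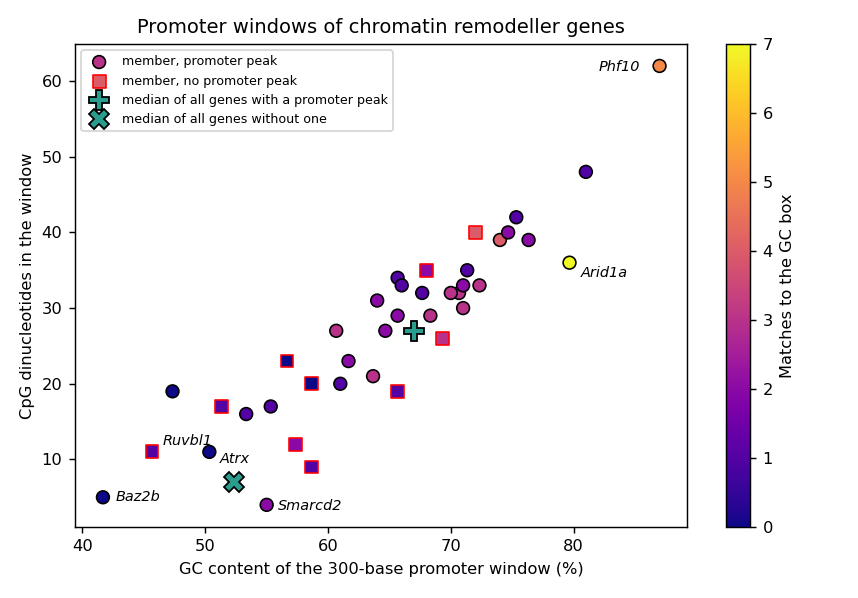
GC content (%) and number of CpG dinucleotides in the 300-base promoter windows of 40 members, coloured by the number of GC box matches; circles have a promoter peak and red-edged squares have none, and the crosses give the medians of all genes with and without a promoter peak. Most circles lie at or above the median of all genes with a promoter peak in CpG, while Baz2b, Atrx and Smarcd2 have peaks and few CpG in their windows. The windows of Baz2b, Atrx and Smarcd2 do not overlap their peaks, so CpG under those peaks was not counted.

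A second list held 56 further genes: subunits of the same complexes, and 11 helicase-like remodellers and partners outside the named complexes. Its share was lower than that of the members, 33 of 56 (58.9%), against the 30.9% of all genes. Of the partners that NuRD adds to the CHD ATPases, 10 of 12 had a promoter peak, with 43.8 at Gatad2b and 39.5 at the methyl-CpG-binding protein gene Mbd3, and none at Mta2 or Rbbp4. Further SWI/SNF subunits had them at 5 of 8, led by Bcl7c with 48.6. Further subunits of the INO80, SRCAP and EP400 complexes had them at 12 of 22, with 46.0 at Yy1, a zinc finger subunit of INO80. Of 3 ISWI partners 2 had one, with 53.5 at Hmgxb4, the highest of this list, and 4 of 11 genes for other helicase-like remodellers and their partners did. The median of the highest promoter fold over the 33 was 22.9, equal at this precision to that of all genes, and the median gene length was 28.2 kb.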

How the data were processed

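The study deposited one annotated peak list over all 8 libraries, 4 ChSP and 4 input. Its name gives PePr as the peak caller. The build GRCm38 and the tools HOMER 4.9.1, ChIPseeker 1.16.1, BWA 0.7.17-r1188 and FastQC 0.11.3 are listed, without roles, per the submitters' processing notes; not given in the sources used here were their settings and the PePr version. The fold (a ratio of ChSP over input), the p-value and the adjusted p-value per peak are the authors' deposited values, and the largest p was 9.99e-06. The score that the authors deposited is proportional to the fold, so it was left aside. Peak edges move in steps of 100 bp per the deposited widths. Whether libraries of a group came from separate cultures is not stated in the labels.

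Members and lists were chosen with earlier results of these data known, so no list was tested. A promoter peak is a peak that the authors assigned to the gene within 1 kb of a TSS; a gene's value is its highest such fold. The background was 21900 protein-coding genes of a RefSeq table (GRCm38.p6), matched by gene ID. All 52 symbols matched. Named genes were the 3 highest promoter folds per complex, the 4 lowest, all genes with several peaks, without a promoter peak or without any, paralogues, and the 5 highest of the second list; some others were named after their values were seen. Chd1 and Chd3 had no promoter window to print, and the stretch of Brd9, which lies in Trip13, was not printed. A comparison with sequence under peaks was planned and not run. Counting steps were tested on simulated data. Scripts ran on pandas 2.3.3 and numpy 2.4.6 under Python 3.11.15, with scipy 1.17.1, and figures were drawn with matplotlib 3.10.9.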

Additional observations from a re-analysis of the deposited data

How the results depend on the processing

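No paired analysis was possible because each peak has 1 pooled value, and no library could be left out for the same cause. The count of 39 members with a promoter peak was 39 within 3 kb, 30 for peaks over a TSS, 41 with any assigned peak, 33 without the 5% widest peaks and 26 among the 4753 peaks with the smallest p, where the share of all genes fell too, to 18.6%. Leaving out the widest peaks removed Arid1a, Arid1b, Arid2, Baz1a, Chd1 and Chd6. Among those 4753 peaks SWI/SNF had 12 of 22 and the other ATPases 1 of 3, and with peaks over a TSS ISWI had 5 of 9; fewer peaks are counted there by construction. The share of all genes was 25.8% for peaks over a TSS, 29.3% without the widest peaks, 31.6% within 3 kb and 33.4% without unnamed gene models. The second list ran from 22 to 34 of 56. The members' median fold ran from 25.4 without the widest peaks to 33.3 among the 4753 peaks, and was above that of all genes in each, by 2.89 to 6.69. Choosing the first RefSeq window, an alternative added after seeing the data like the joining of close peaks and the classes of gene length, left 35 windows with a GC box.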

Other observations

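The start site used by the authors' annotation and that of RefSeq lay apart for some members. The promoter peak of Smarcd2 lies over an annotated TSS and the RefSeq gene end, and 4669 bp from the RefSeq start site of the window, whose 300 bases hold 4 CpG. That of Baz1a lies inside the gene, 27.9 kb from the nearer RefSeq gene end. The Srcap peak begins 218 bp downstream of the RefSeq start site and covers the start site of the noncoding gene 1700008J07Rik. The Chd1 peak, which lies over the Chd1 start in both annotations, also covers the start site of the noncoding gene 5830433I10Rik.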
